A study of Homo sapiens with 6 samples.

Results

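The splicing regulators described here are 35 of the 45372 genes listed in the deposited tables: 4 CLK kinases, 2 SRPK kinases, 11 SR proteins, 2 TRA2 proteins, 2 SRRM proteins, 11 hnRNP and PTB proteins, and 3 RBM proteins. They were chosen by symbol from a list drawn up with the mimic and control results of these data already known, and each symbol matched 1 Ensembl gene ID. No threshold on a measured value entered the choice, but the values of this contrast were in view, so the counts and p-values below describe the members and are not independent evidence about them.

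The cells were HUVECs, primary endothelial cells of the human umbilical vein, of wild-type genotype. The mimic libraries came from cells 48 h after lipid transfection with 50 nM of a miR-409-3p mimic (n = 3), and the control libraries from cells given 50 nM of a non-specific control RNA in the same way (n = 3). Each RNA sample was a pool of 4 technical replicates. The labels call the 3 samples of a group biological replicates without saying whether they came from separate donors or cultures. The p-values below therefore set group differences against the spread between these samples only, with information on that spread shared across genes. Every title also carries a not-treated tag, whose meaning the labels leave out.

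Splicing removes introns from pre-mRNA. SR proteins bind exons through RNA recognition motifs and recruit the spliceosome through a tail rich in arginine and serine. SRPK kinases phosphorylate that tail mainly in the cytoplasm, which promotes import into the nucleus, and CLK kinases phosphorylate it further in the nucleus and release SR proteins from nuclear speckles. The hnRNPs coat nascent RNA and often oppose SR proteins at the same exons. Many of these genes also regulate their own mRNA by alternative splicing, which a single TPM per gene cannot show, since it adds all isoforms.

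The mimic carries the mature microRNA, shown here with its seed, bases 2 to 8, in capitals (RefSeq, GRCh38.p14, chr14:101065346-101065367, plus strand).
miR-409-3p: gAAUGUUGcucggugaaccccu

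A microRNA commonly lowers transcripts whose 3′ UTR pairs with its seed, so the members' longest annotated 3′ UTRs (GENCODE 29, GRCh38) were searched for CAACATTA (8mer), CAACATT (7mer), AACATTA (7mer-A1) and AACATT (6mer), each gene counted by its longest match. Of the 35 members, 1 held an 8mer, 5 a 7mer, 4 a 7mer-A1, 13 only a 6mer and 12 no match, so 10 held a match of at least 7 bases, as did 22.8% of 11855 searched genes. The sites below are the 8mer, the first 7mer of each member that has one, the 7mer-A1 of RBM48 and the 6mers of CLK1 and SRSF5. RBM48, CLK1 and SRSF5 were picked with their differences known. Other matches, such as the 7mer-A1 matches of HNRNPA2B1, HNRNPA3 and HNRNPU and the 6mers of SRPK2 and RBM5, are not shown. Capitals mark the match.
CLK3 7mer, chr15:74640697-74640725, plus strand: tctgcaaatgcCAACATTttaccatggat
SRSF3 7mer, chr6:36603120-36603148, plus strand: tatttagtgacCAACATTttaaagtatag
SRSF6 8mer, chr20:43464199-43464228, plus strand: ctttcaagattCAACATTAcacaataaaac
SRSF7 7mer, chr2:38744169-38744197, minus strand: gttcccaaccaCAACATTcttctattttg
SRSF8 7mer, chr11:95068465-95068493, plus strand: aagacatgcttCAACATTgccttcattcc
HNRNPK 7mer, chr9:83969269-83969297, minus strand: gtttaaaaagcCAACATTcctctgcttca
RBM48 7mer-A1, chr7:92537412-92537440, plus strand: attcttgtcatAACATTAtctctcatgta
CLK1 6mer, chr2:200853194-200853221, minus strand: tgtaaattcttAACATTtttatattgcc
SRSF5 6mer, chr14:69771768-69771795, plus strand: aaaaaaatttgAACATTttagttcttgg

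CLK4 and CLK2 held none of these matches. SRSF6, the 1 member with an 8mer, had a log2 difference of 0.10 (SE 0.06), and the 5 members with a 7mer ranged from -0.21 for CLK3 to 0.08 for SRSF8. The 4 members with a 7mer-A1 ranged from -0.51 for RBM48 to 0.08 for HNRNPA3. The 12 members without a match ranged from -0.69 to 0.09, and the 13 with only a 6mer from -0.46 to 0.31. The median log2 difference was 0.04 for the 5 with a 7mer, 0.01 for the 4 with a 7mer-A1, -0.03 for the 13 with a 6mer and -0.02 for the 12 with none. Over all searched genes the medians of these classes and of the 8mer lay between -0.02 and -0.01. The match is a description of letters in 1 annotated transcript and was not tested as a site.

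All 35 members passed the filter of at least 1 TPM (reads per gene length as a share of the library) in at least 3 libraries, as did 13680 genes in all. Differences were fitted with limma on log2(TPM + 1) across those genes, mimic minus control, with Benjamini-Hochberg adjustment over all of them. Of the 35 members, 2 fell (CLK4 and RBM48), 0 rose and 33 did not pass an adjusted p of 0.05. Of all tested genes 0.431% passed, 0.132% higher and 0.3% lower. With an unadjusted p under 0.05 as the limit, 1 member lay above and 7 below control, against 3.05% and 7.64% of tested genes. The groups did not overlap for 8 members, 1 above and 7 below control, against 5.16% and 10.5% of tested genes. The median log2 difference of the members was -0.02, the same to 2 decimals as over all tested genes, and 20 of 35 were below 0, against 56.6% of tested genes.

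**Figure D1:**
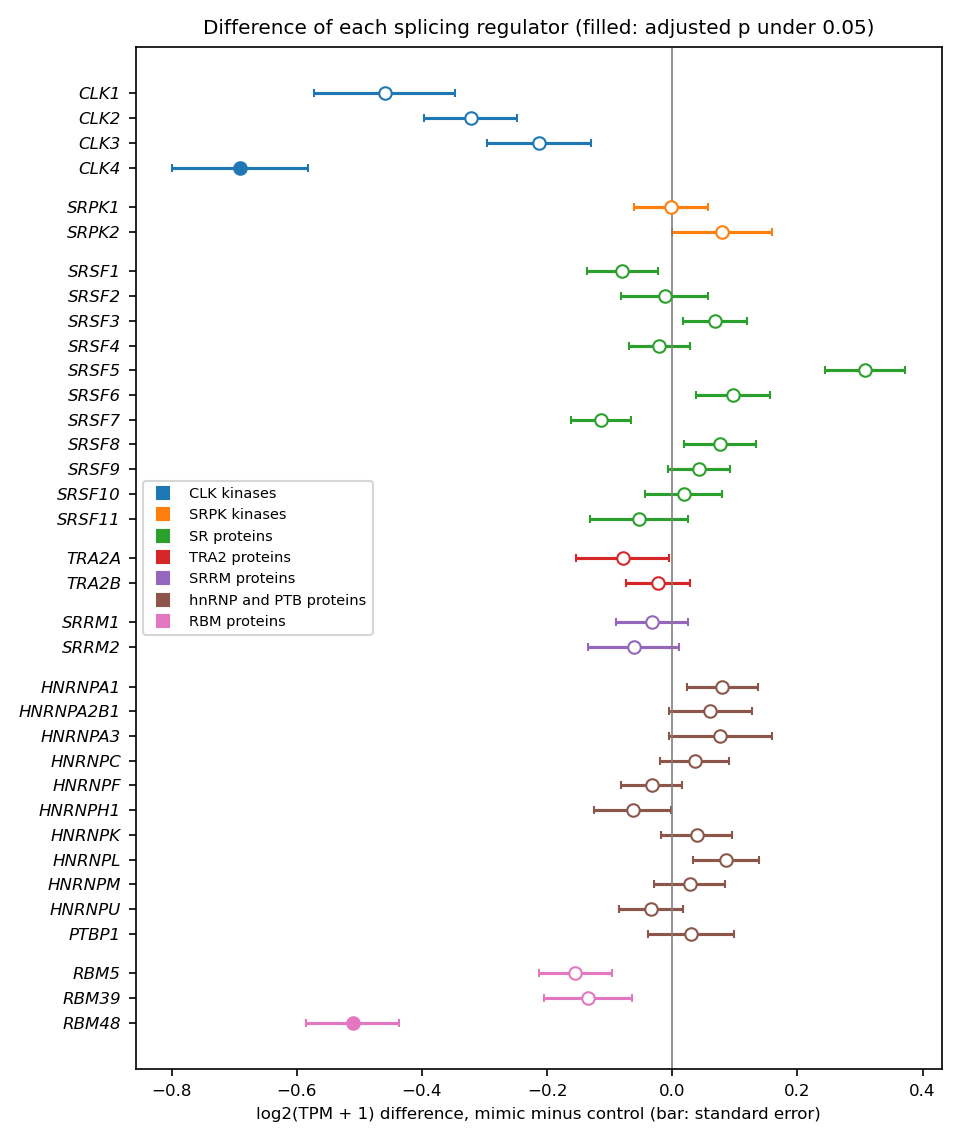
Log2(TPM + 1) difference of each of the 35 members, miR-409-3p mimic minus control (n = 3 each), by family, with the limma standard error as a bar; filled points have an adjusted p under 0.05. The 4 CLK kinases and RBM48 lie at the left, between -0.69 and -0.21, SRSF5 lies at the right at 0.31, and the hnRNPs lie between -0.06 and 0.09.

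The libraries held an estimated 29.8 to 35.8 M assigned reads, and mitochondrial transcripts took 8.65% to 9.99% of TPM, with the groups overlapping in both. In the order mimic 1 to 3, then control 1 to 3, principal component 1 was at -7.58, -22.3 and 8.19, then 6.27, 10.6 and 4.85, so mimic library 2 lay farthest from the rest along it. Principal component 2 was at 8.30, -2.55 and 19.2, then -6.10, -3.73 and -15.1, with mimic library 3 highest and control library 3 lowest. Mimic library 2 was the highest mimic library for 27 of the 35 members, against 47.0% of tested genes, and control library 1 was the lowest control library for 32 members, against 58.5%. The 12 endothelial markers were all tested and summed to 6396 to 6582 TPM in mimic and 6124 to 6413 TPM in control libraries. Leukocyte markers summed to 0.105 to 0.613 TPM in mimic and 0.259 to 0.425 TPM in control libraries, with PTPRC, CD3E and ITGAM listed at 0. Blood and platelet markers summed to 0.292 to 0.579 TPM in mimic and 0.0663 to 0.125 TPM in control libraries, with HBA1, HBA2, HBB and PPBP at 0. Smooth muscle and fibroblast markers summed to 10.4 to 12.1 and 13.1 to 16.6 TPM in mimic and 9.60 to 13.5 and 13.1 to 16.4 TPM in control libraries. Epithelial markers, led by keratin genes that endothelium also expresses, summed to 261 to 327 TPM in mimic and 307 to 318 TPM in control libraries, with KRT5 at 0, and lymphatic endothelial markers to 56.5 to 56.9 TPM in mimic and 51.1 to 54.2 TPM in control libraries, with PDPN at 0. The part of the blood and platelet and lymphatic sums, which were apart between groups, in the members' differences was not tested. Of all these markers 0 passed the limma test, and 2, CLEC14A and LYVE1, had an unadjusted p under 0.05. In bulk RNA, fewer cells of a kind and less RNA per cell cannot be told apart.

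The CLK kinases were the family with the lowest median, -0.39 on the log2(TPM + 1) scale. For all 4 the highest mimic value was below the lowest control value, as for 10.5% of tested genes. All 4 were lower at an unadjusted limma p under 0.05, against 7.64% of tested genes. Of the 4, 1, CLK4, passed, against 0.3% of tested genes that passed as lower. Their summed level was 68.9, 72.0 and 68.5 TPM in mimic libraries, against 84.7, 94.4 and 96.2 TPM in control libraries, 0.761 of the control mean.

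CLK4, a close paralog of CLK1, measured 2.71, 2.80 and 2.57 TPM in mimic libraries and 4.66, 4.68 and 5.60 TPM in control libraries. Each mimic value lay well below the lowest control value, and the means were 2.70 ± 0.113 and 4.98 ± 0.536 TPM (SD, n = 3 each), a ratio of 0.541. CLK4 fell by 0.69 on the log2 scale (SE 0.11; adjusted p = 0.0436 by limma with Benjamini-Hochberg correction). Of all tested genes 0.483% had a difference that low or lower. The pseudocount of 1 TPM makes the log2 value smaller than the ratio of means for a gene this low. With the GENCODE 29 exon length of 7924 nt the values correspond to about 175, 197 and 154 reads in mimic libraries and 306, 302 and 384 reads in control libraries, although for CLK4 these did not come out as whole numbers. The call was lost when any 1 of the 6 libraries was left out, with adjusted p between 0.0658 and 0.166 and differences between -0.73 and -0.62, and its adjusted p was 0.195 with no filter on low genes, within a range of 0.0137 to 0.195 over 15 alternatives. CLK4 lies on the minus strand of chromosome 5 at 178602664 to 178630615 (GRCh38) and shares 161 nt of exon with the small RNA pseudogene RN7SKP70 on its own strand.

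CLK1, the best studied member, which also splices its own transcript into forms without a full kinase domain, measured 23.0, 25.1 and 18.3 TPM in mimic libraries and 28.6, 29.7 and 33.5 TPM in control libraries. The groups were apart, and mimic library 3 was the lowest of all. The log2 difference was -0.46 (SE 0.11, limma adjusted p = 0.148). It ranged from -0.55 without mimic library 2 to -0.33 without mimic library 3. CLK1 (chromosome 2, 200853009 to 200864744, minus strand) overlaps no other annotated exon, and its values correspond to 967, 1151 and 714 reads in mimic libraries and 1225, 1250 and 1501 reads in control libraries.

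CLK2 measured 37.6, 38.4 and 41.5 TPM in mimic libraries and 44.8, 52.7 and 50.3 TPM in control libraries, the highest level of the 4 kinases in both groups. Its log2 difference was -0.32 (SE 0.07, limma adjusted p = 0.121). CLK3 measured 5.68, 5.75 and 6.15 TPM in mimic libraries and 6.67, 7.34 and 6.85 TPM in control libraries, with a difference of -0.21 (SE 0.08, limma adjusted p = 0.394). Both were apart between groups, by small steps. CLK3 has an annotated exon length of 20443 nt, which lowers its TPM for a given number of reads, about 945 to 1045 in mimic and 1130 to 1223 in control libraries, and 701 nt of its exons overlap EDC3 on the opposite strand, whose reads cannot be told apart if strand was not used.

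**Figure D2:**
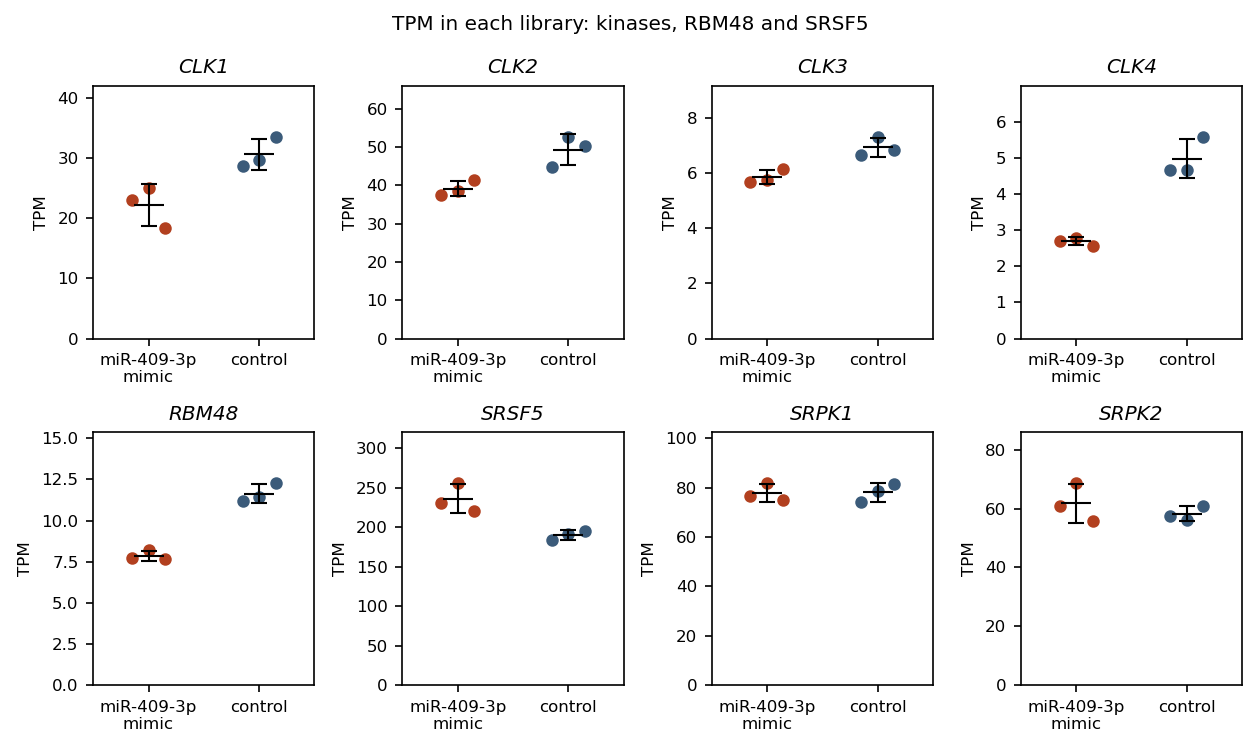
TPM in each library for the CLK and SRPK kinases, RBM48 and SRSF5, with miR-409-3p mimic libraries on the left of each panel and control libraries on the right; black bars are the mean and SD (n = 3). The groups are apart in the CLK, RBM48 and SRSF5 panels, for example 2.57 to 2.80 against 4.66 to 5.60 TPM for CLK4, and overlap in both SRPK panels.

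For the 4 CLK genes, of which only CLK4 passed the test, the 250 bases before each RefSeq start (GRCh38.p14) are shown, 5′ to 3′ on the gene's strand, with capitals for any match to a set of promoter motifs searched on both strands.
CLK1, chr2:200864659-200864908, minus strand: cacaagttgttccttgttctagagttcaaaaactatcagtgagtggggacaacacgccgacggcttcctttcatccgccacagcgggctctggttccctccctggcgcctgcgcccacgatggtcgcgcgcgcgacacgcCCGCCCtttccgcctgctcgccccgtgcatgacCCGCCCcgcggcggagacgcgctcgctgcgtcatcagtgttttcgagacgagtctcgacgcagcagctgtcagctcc
CLK2, chr1:155273505-155273754, minus strand: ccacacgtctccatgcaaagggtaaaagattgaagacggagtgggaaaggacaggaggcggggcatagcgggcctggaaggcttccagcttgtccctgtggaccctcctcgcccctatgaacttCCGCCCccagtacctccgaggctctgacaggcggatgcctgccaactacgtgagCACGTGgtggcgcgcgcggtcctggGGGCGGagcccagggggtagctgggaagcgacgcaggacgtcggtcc
CLK3, chr15:74608122-74608371, plus strand: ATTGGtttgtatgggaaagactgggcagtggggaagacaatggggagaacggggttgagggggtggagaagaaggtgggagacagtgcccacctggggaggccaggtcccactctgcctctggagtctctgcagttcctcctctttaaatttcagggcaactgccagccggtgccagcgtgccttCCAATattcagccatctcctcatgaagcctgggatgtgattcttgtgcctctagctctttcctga
CLK4, chr5:178627051-178627300, minus strand: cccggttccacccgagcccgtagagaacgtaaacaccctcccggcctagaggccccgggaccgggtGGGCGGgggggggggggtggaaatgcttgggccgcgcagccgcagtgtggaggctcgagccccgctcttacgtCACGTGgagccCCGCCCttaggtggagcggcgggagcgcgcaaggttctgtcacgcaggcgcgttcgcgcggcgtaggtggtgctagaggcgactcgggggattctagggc

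The motifs were the SP/KLF GC box GGGCGG, the ETS site CCGGAAG, the CCAAT box CCAAT, the E-box CACGTG, the YY1, cAMP response and EGR sites AAGATGGCG, TGACGTCA and GCGTGGGCG, and the palindromic NRF1 site. The letters GGGCG are shared by the GC box and the EGR site. CLK1, CLK2 and CLK4 each held GGGCGG on either strand, as did 42.3% of 27305 RefSeq promoters and 16 of the 30 members with an entry. CLK2 and CLK4 each held CACGTG, as did 6.49% of promoters and, of the members, HNRNPA3 and HNRNPM besides. CLK3 held CCAAT, as did 33% of promoters. The NRF1, YY1, cAMP response and EGR letters were in 0 of the 30 member windows and in 1.13%, 0.641%, 1.77% and 0.71% of all promoters. GENCODE 29 also annotates starts of CLK2, CLK3 and CLK4 upstream of these windows. Its CLK1 gene begins inside the CLK1 window, at 200864744, so the window's bases from there to its end at 200864659 lie within that gene. The later of the marked CLK1 GC boxes, at base 174 of the window, is among them. Which start the cells used cannot be read from TPM.

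The SRPK kinases, the cytoplasmic counterparts, overlapped between groups. SRPK1 measured 76.7, 81.9 and 75.1 TPM in mimic libraries and 74.1, 78.6 and 81.3 TPM in control libraries, a log2 difference of -0.0026 (SE 0.06). SRPK2 measured 61.0, 68.7 and 55.6 TPM in mimic libraries and 57.6, 56.0 and 61.0 TPM in control libraries, with a difference of 0.08 (SE 0.08). For SRPK2 mimic library 2 was the highest and mimic library 3 the lowest of all 6 libraries.

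Among the 11 SR proteins 0 passed limma with Benjamini-Hochberg adjustment, against 0.431% of tested genes. At an unadjusted p under 0.05 SRSF5 was higher and SRSF7 lower, against 3.05% and 7.64% of tested genes. The family median was 0.02, and its summed level was 1870, 1936 and 1878 TPM in mimic libraries and 1789, 1891 and 1871 TPM in control libraries. SRSF5, an SR protein with a pair of RNA recognition motifs, measured 231, 256 and 220 TPM in mimic libraries and 183, 192 and 195 TPM in control libraries. Every mimic value lay above every control value, at a ratio of means of 1.24. The log2 difference was 0.31 (SE 0.06, limma adjusted p = 0.0893), and 97.1% of tested genes had a difference that low or lower. Its adjusted p was 0.0446 when only protein-coding genes were tested, a setting chosen after the data were seen in which 1.46% of genes passed, and 0.0635 to 0.275 without 1 library. SRSF5 overlaps no other annotated exon on chromosome 14 (69726900 to 69772005, plus strand).

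SRSF7, which carries a zinc knuckle besides its RNA recognition motif, measured 157, 148 and 156 TPM in mimic libraries and 165, 165 and 169 TPM in control libraries. The groups were apart by a small step, with a log2 difference of -0.11 (SE 0.05, limma adjusted p = 0.446). SRSF2, which binds exonic enhancers and was the most abundant SR protein mRNA, measured 392, 379 and 436 TPM in mimic libraries and 382, 433 and 401 TPM in control libraries, with the groups mixed. SRSF1, the founding SR protein, had means of 229 ± 11.7 TPM in mimic and 243 ± 9.58 TPM in control libraries, and SRSF3, the shortest SR protein, 237 ± 11.1 and 226 ± 1.80 TPM (SD, n = 3 each). SRSF6 and SRSF9 averaged 181 ± 10.2 and 179 ± 3.29 TPM in mimic and 169 ± 7.04 and 174 ± 5.79 TPM in control libraries. SRSF4, SRSF8, SRSF10 and SRSF11 had differences between -0.05 and 0.08. The other 9 SR proteins, those besides SRSF5 and SRSF7, overlapped between groups and spanned -0.08 to 0.10. Of all tested genes 15.7% did not overlap. SRSF2 shares 1106 nt of exon with MFSD11, and SRSF9 shares 1729 nt with GATC, each on the opposite strand, and SRSF1 shares 1890 nt with AC015813.2 on its own strand.

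TRA2A and TRA2B, homologs of the fly sex-determination factor transformer-2, and SRRM1 and SRRM2, large speckle proteins with arginine and serine rich stretches, did not pass and overlapped between groups. TRA2A measured 131, 156 and 141 TPM in mimic libraries and 143, 148 and 161 TPM in control libraries. SRRM1 measured 134, 134 and 122 TPM in mimic libraries and 128, 138 and 133 TPM in control libraries. The log2 differences of the 4 genes ran from -0.08 for TRA2A to -0.02 for TRA2B, each about as large as or smaller than its SE.

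The 11 hnRNP and PTB genes were the most abundant family and gave 0 genes past the limma threshold, 0 at an unadjusted p under 0.05 and 0 without overlap. Of all tested genes 0.431%, 10.7% and 15.7% did so, in that order. The differences of these 11 genes ran from -0.06 for HNRNPH1 to 0.09 for HNRNPL, with SEs of 0.05 to 0.08 and a median of 0.04. HNRNPA1, a repressor of exon inclusion that binds UAG-containing sites, measured 1833, 1969 and 1754 TPM in mimic libraries and 1760, 1763 and 1725 TPM in control libraries, the highest level of any member. The mimic libraries spread more widely than the control libraries, with mimic library 2 the highest. The same library was the highest of all 6 for HNRNPA2B1, at 981 TPM, HNRNPA3, at 712 TPM, and HNRNPC, at 616 TPM. HNRNPA1 has 74 annotated pseudogenes named after it, HNRNPA3 has 16 and HNRNPC 9, and how reads shared with such copies were counted is not given in the sources used here. HNRNPK, which binds C-rich RNA, averaged 987 ± 39.3 TPM in mimic and 960 ± 46.3 TPM in control libraries, and PTBP1, which binds pyrimidine tracts and represses neuronal exons, 290 ± 17.0 and 285 ± 21.2 TPM (SD, n = 3 each). HNRNPF, HNRNPL, HNRNPM and HNRNPU averaged 325 ± 6.18, 224 ± 5.99, 405 ± 19.2 and 200 ± 6.04 TPM in mimic and 333 ± 10.7, 212 ± 9.38, 398 ± 17.3 and 205 ± 6.86 TPM in control libraries (SD, n = 3 each). HNRNPU shares 3502 nt of exon with COX20 on the opposite strand.

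The 3 RBM proteins were all below 0, against 56.6% of tested genes, and 1 passed, against 0.3% of tested genes that passed as lower. RBM48, a component of the minor spliceosome, which removes the rare U12-type introns, measured 7.72, 8.22 and 7.64 TPM in mimic libraries and 11.2, 11.4 and 12.3 TPM in control libraries. The groups were far apart against a spread of at most 0.573 TPM (SD) in either, and the ratio of means was 0.676. RBM48 fell by 0.51 on the log2 scale (SE 0.07; adjusted p = 0.0321 by limma with Benjamini-Hochberg correction), at about 273, 318 and 251 reads in mimic and 403, 405 and 463 reads in control libraries, which again were not whole. The call was lost without any 1 of the 6 libraries, at adjusted p of 0.0512 to 0.150, with no filter at 0.147 and with an untrended prior at 0.0524, within a range of 0.0149 to 0.156 over 16 alternatives, and the difference stayed between -0.56 and -0.47. It lies on chromosome 7 at 92528773 to 92538005, plus strand, and overlaps no other annotated exon.

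RBM5, a regulator of apoptosis-gene splicing, measured 39.3, 41.1 and 38.4 TPM in mimic libraries and 42.2, 45.0 and 45.4 TPM in control libraries. The groups were apart, with a difference of -0.15 (SE 0.06, limma adjusted p = 0.371), and 456 nt of its exons overlap RBM6 on the same strand. On the opposite strand its exons share 1007 nt with RBM5-AS1 and 801 nt with SEMA3F-AS1. RBM39, a U2AF-related factor and the target of the degrader indisulam, measured 79.1, 86.1 and 74.2 TPM in mimic libraries and 82.5, 87.8 and 92.7 TPM in control libraries, with overlap and a difference of -0.14 (SE 0.07, limma adjusted p = 0.570).

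**Figure D3:**
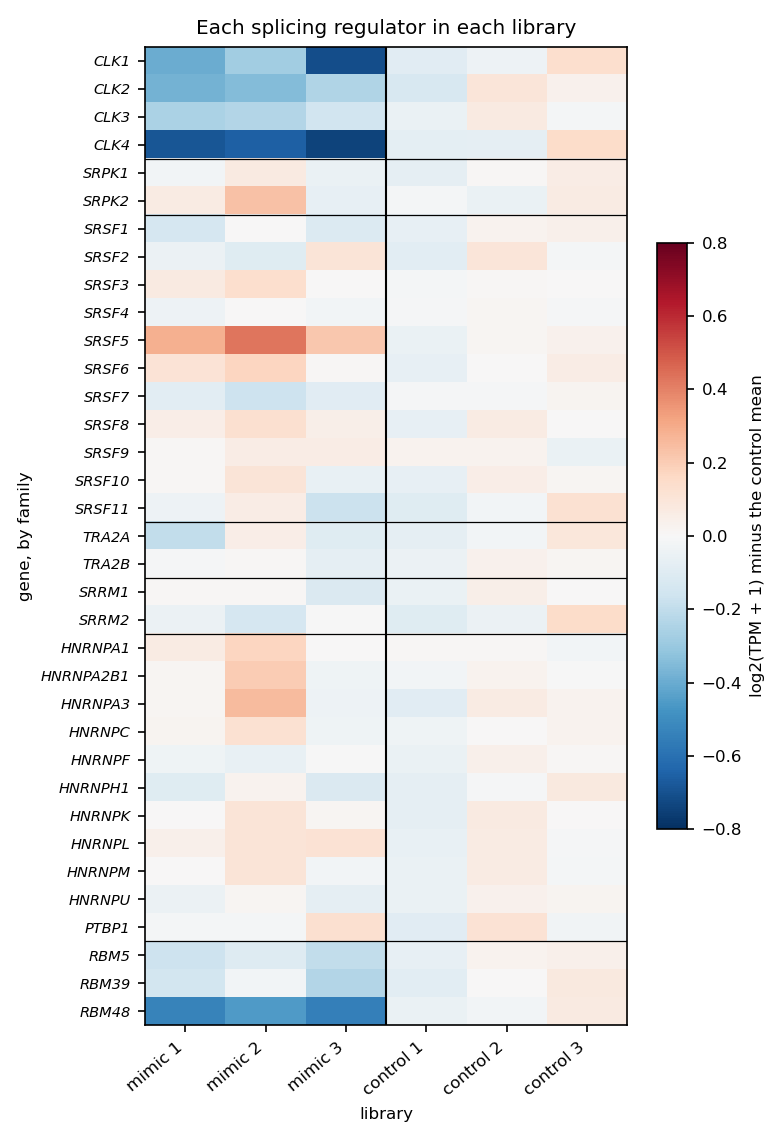
Log2(TPM + 1) of each member in each library minus the mean of the 3 control libraries, with mimic libraries left of the black line and families separated by thin lines; the colour scale runs from -0.8 to 0.8. The CLK rows and RBM48 are blue in all 3 mimic libraries, SRSF5 is red in all 3, and 8 of the 11 hnRNP and PTB rows have their highest mimic value in mimic library 2.

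Other splicing-related genes were read from the same fit by lists that were drawn up with earlier results of these data known. Their counts are therefore description only. Over 7 lists, 178 of 185 entries were tested (MATR3 has 2 gene IDs), and the median log2 difference was -0.02. By limma with Benjamini-Hochberg adjustment 2 fell and 0 rose, against 0.3% and 0.132% of all tested genes. An unadjusted p under 0.05 was reached by 4 entries above and 18 below control, against 3.05% and 7.64% of all tested genes. Among the 2 that fell is RBM48 itself, which the minor spliceosome list holds. The other is PPP1R10, a targeting subunit of protein phosphatase 1, at 33.0, 31.8 and 35.3 TPM in mimic libraries and 51.5, 53.9 and 56.4 TPM in control libraries, a difference of -0.68 (SE 0.06, limma adjusted p = 0.00618).

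The minor spliceosome list had 14 tested genes, of which 1 fell and 0 rose, against 0.3% and 0.132% of all tested genes. Of the 14, 11 were below 0, against 56.6% of all tested genes, and 4 had an unadjusted p under 0.05, all below control, against 7.64%. PDCD7, a protein of the U11/U12 particle, measured 39.4, 41.3 and 38.3 TPM in mimic libraries and 49.8, 49.2 and 51.1 TPM in control libraries, with no overlap and a difference of -0.33 (SE 0.05, limma adjusted p = 0.0525). ARMC7, which binds RBM48, measured 13.4, 10.8 and 13.4 TPM in mimic libraries and 15.4, 15.2 and 15.5 TPM in control libraries (difference -0.28, SE 0.09, limma adjusted p = 0.286). ARMC7 was also apart between groups. So was TXNL4B, with a lower unadjusted p than ARMC7 (difference -0.23, SE 0.06, limma adjusted p = 0.179). The list median was -0.06. PDCD7, ARMC7 and TXNL4B fall outside the naming rule and were chosen after their values were seen.

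Among 18 tested splicing kinases, phosphatases and import factors besides the CLK and SRPK genes, PPP1R10 fell, 0 rose, and an unadjusted p under 0.05 was reached by 1 gene above and 3 below control. Of all tested genes 0.3% fell and 0.132% rose, and 3.05% lay above and 7.64% below control at that level. The same shares stand beside the counts of the lists that follow. DYRK1A, a kinase of the family next to the CLKs, was the 1 gene above control, at 13.3, 14.1 and 12.2 TPM in mimic libraries and 9.66, 10.2 and 10.8 TPM in control libraries (difference 0.34, SE 0.08, limma adjusted p = 0.129), and it too was chosen after its values were seen. Its relative DYRK3 lay the other way, at 5.62, 6.34 and 5.52 TPM in mimic libraries and 6.94, 7.45 and 7.43 TPM in control libraries, with no overlap (difference -0.28, SE 0.09, limma adjusted p = 0.265). DYRK3 was also chosen after its values were seen. HIPK1 was the remaining gene below control at that level, with no overlap (difference -0.21, SE 0.06, limma adjusted p = 0.228). The differences of DYRK1B and DYRK2 were -0.10 and 0.02, each with an SE of 0.08. Of 24 other SR-related genes 0 passed limma, and an unadjusted p under 0.05 was reached by 0 above and 3 below control, led by RSRC2 (-0.29, SE 0.07) and RSRP1 (-0.24, SE 0.08), with a list median of -0.06. Of 26 other hnRNP and PTB entries 0 passed and 1 was lower at that level, TIAL1 (-0.14, SE 0.06), with HNRNPDL next (0.12, SE 0.06) and a median of 0.02. Of 36 other RBM and tissue splicing regulators 0 passed, 2 were higher and 1 lower at that level, led by the cold-inducible CIRBP (0.25, SE 0.06) and RBM14 (-0.20, SE 0.08), with a median of -0.01.

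Of 47 spliceosome core genes 0 passed limma, against 0.431% of all tested genes. An unadjusted p under 0.05 was reached by 1 above and 3 below control, against 3.05% and 7.64% of all tested genes. These were led by PRPF3, a U4/U6 particle protein (-0.21, SE 0.06), and CWC22 (-0.22, SE 0.08), and the list median was -0.01. Of 15 exon junction and nonsense-mediated decay genes 0 passed and 0 were higher and 3 lower at that level, led by the helicase UPF1 (-0.16, SE 0.07) and SMG8 (-0.16, SE 0.07), with a median of -0.04.

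**Figure D4:**
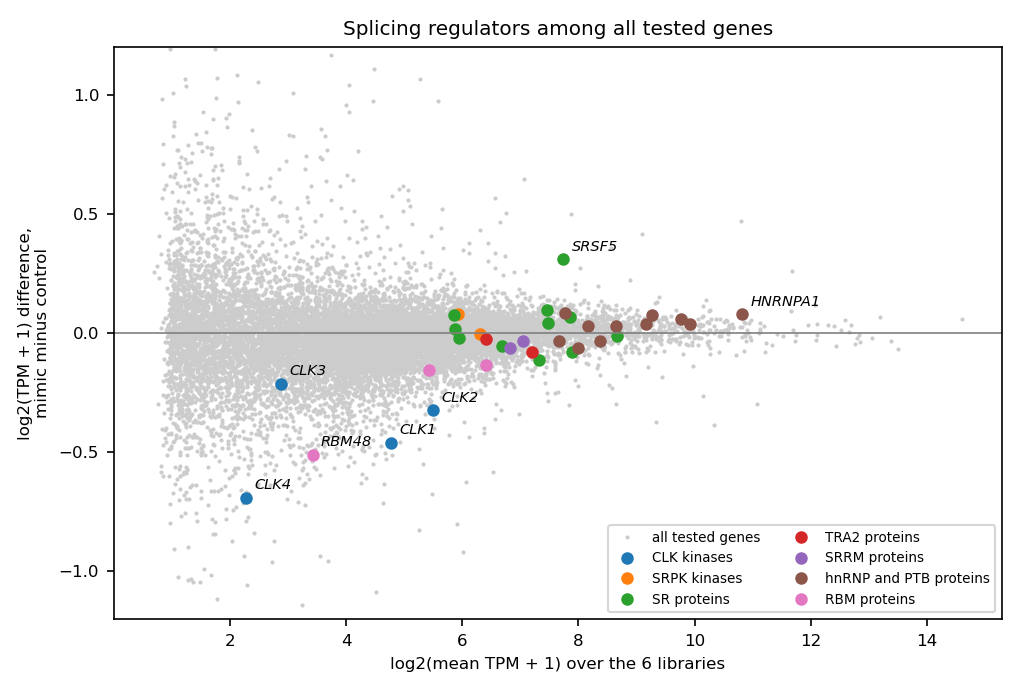
Log2(TPM + 1) difference, miR-409-3p mimic minus control, against log2(mean TPM + 1) over the 6 libraries for 13680 tested genes (grey) and the 35 members (coloured by family); 29 genes lie outside the vertical range of -1.2 to 1.2. The CLK kinases and RBM48 sit at low to middle levels below 0, and the hnRNP and SR genes sit at high levels near 0 except SRSF5 at 0.31.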

How the data were processed

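RNA-seq of 6 HUVEC libraries, 3 mimic and 3 control, was used. The values the authors deposited are TPM, per the file headers, for 45372 Ensembl gene IDs. The submitters' processing notes name hg38 and GRCh38.p13. The aligner, counter, annotation and strand setting were not given in the sources used here. Groups came from the sample titles. An ID-to-symbol table covered 45102 of the IDs, and positions, exon lengths and 3′ UTRs (at least 30 nt) came from GENCODE 29.

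TPM keeps no depth, but TPM times exon length was a whole multiple of 1 value per library for 75.9% to 76.8% of low genes and, in all 6 libraries, for 22 of the 35 members (tolerance 0.02 reads for low genes and 0.05 for members), which gives the read estimates. They assume GENCODE 29 lengths and include PCR copies. Pairs of libraries shared 0 identical values above 0.

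The comparison used limma 3.58.1 in R 4.3.3 on log2(TPM + 1), trended prior, group as the only term, keeping genes that reached 1 TPM in 3 or more libraries, adjusted p under 0.05, tested on simulated data first. Members get values in every library if past the threshold, at an unadjusted p under 0.05, without overlap, most abundant in the family, or a kinase; other lists get up to 3 genes past the threshold or the 2 with the lowest p. The members and lists were chosen with earlier results of these data known. Other pseudocounts, filters, scalings and priors, a replicate block, and each library left out were tried, with protein-coding genes alone added after the data were seen.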

Additional observations from a re-analysis of the deposited data

How the results depend on the processing

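In the alternatives run, 23 of 35 members kept their sign throughout, among them the CLK kinases, SRSF5, SRSF7 and the RBM proteins. The other 12, none of them called, lay between -0.06 and 0.08 and changed sign in 1 to 6 alternatives. The 2 falls among the members became 0 with no filter, 0 with a replicate block, 1 with an untrended prior, 1 with a filter of 5 TPM, which CLK4 did not reach, and 0 without any 1 library (0 to 0). The 0 rises became 1, SRSF5, with protein-coding genes only, a setting chosen after the data were seen. The median of all members, -0.0206, was 0.0006 with median-of-ratios scaling, which moved the median of all genes to 0.0034, and ran from -0.0457 without control library 1 to 0.0070 without control library 3. The family medians moved by less than the spread between libraries, but some near 0 changed sign. Without mimic library 2 the SRPK median went from 0.0384 to -0.0187 and the hnRNP and PTB median from 0.036 to -0.0092. Without control library 1 the SR median went from 0.0181 to -0.0152. The CLK, TRA2, SRRM and RBM medians stayed below 0.

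Over all genes, 18 higher and 41 lower became 34 and 42 with quantile scaling, which raised the share of higher calls to 44.7% against 30.5%, and 33 and 54 with median-of-ratios scaling. The robust prior gave 37 and 82, the untrended one 10 and 10. Testing genes of 5 TPM or more gave 36 and 79, and testing protein-coding genes 54 and 122. With no filter, the 23872 genes with a value above 0 in at least 1 library gave 6 and 5. Without 1 library there were 6 to 22 higher and 6 to 27 lower. The cause of these changes was not tested, except that fewer libraries or more genes enter some fits. Libraries with the same number did not deviate together (correlations of 0.03, -0.09 and -0.11), and not every library correlated best with its own number, so the numbers were not taken as pairs; the replicate block gave 9 higher and 5 lower genes, and adjusted p of 0.161 for CLK4 and 0.156 for RBM48.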
